A study of Homo sapiens with 8 samples.

Results

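The 10 genes described here are the MHC class II transactivator CIITA, its DNA-bound partner RFX5, the class II chains HLA-DRA, HLA-DRB1, HLA-DPA1 and HLA-DPB1, the peptide-loading chains HLA-DMA and HLA-DMB, the invariant chain CD74 and the protease CTSS (cathepsin S). They were chosen by gene symbol from the 61552 rows of the count table, and no symbol was missing. RNA was sequenced from MDA231-LM2 (LM2 below), a lung-metastatic derivative of MDA-MB-231, and from MDA-MB-231 itself, a triple-negative human breast cancer line. There were 4 groups of 2 libraries, numbered 2 and 3 in the labels: LM2 with a hairpin against TAF7 (LM2 shTAF7), LM2 with a control hairpin (LM2 control), MDA-MB-231 with the TAF7 hairpin (MDA-MB-231 shTAF7) and MDA-MB-231 with the control hairpin (MDA-MB-231 control). The study asked which transcripts depend on TAF7, a subunit of the general transcription factor TFIID, and it was targeted with 1 hairpin (number 3 by the sample titles). Every group carries a hairpin, the controls included, the control libraries are labelled wild type in genotype, and no interferon or other stimulus is given in the labels. Whether the libraries of a group are independent cultures is not stated, and the p-values below cover the variation among libraries alone.

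MHC class II molecules present peptides from the endosomal route to CD4+ T cells and are made mainly by B cells, dendritic cells and macrophages, but many other cells make them after exposure to interferon gamma. CIITA does not bind DNA. It is recruited to class II promoters by RFX5, RFXANK and RFXAP, by CREB1 and by the trimer NF-Y, and it also drives CD74. The CD74 protein fills the groove of newly made class II dimers, cathepsin S trims it in endosomes, and the HLA-DM heterodimer then exchanges its last fragment for a peptide. TAF7 protein has been described as a partner of CIITA.

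TAF7 itself had 2549 and 2809 counts in the LM2 shTAF7 libraries, against 3548 and 3527 in the LM2 control libraries. It had 1845 and 2160 counts in MDA-MB-231 shTAF7, against 3446 and 3300 in the MDA-MB-231 control. Each shTAF7 library was below both control libraries of its line. Library totals lay between 17217776 and 20292291 counts in genes, and 1 read equalled 0.0488 to 0.0583 CPM (read counts scaled to a common library size, here after TMM adjustment). The LM2 control libraries stood apart, with reads in 24762 and 24490 genes, against 22296 to 23434 in the other 6. Of markers shared by both lines, which cannot tell them apart, 5 genes expected to be high (VIM, CD44, EGFR, AXL and CAV1) summed to between 3072 and 4675 CPM in every library. Of 3 genes expected to be low, ESR1 had at most 5 reads and PGR at most 1, while ERBB2 had 52.9 to 73.3 CPM. Of the markers of professional antigen-presenting cells, MS4A1, AIF1, TYROBP, CD1C and CLEC9A were at 0 in all 8 libraries. The others were not, among them CD22 and CSF1R, the latter with 16 to 37 reads. PTPRC had 0 and 3 counts in LM2 shTAF7, 5 and 2 in the LM2 control and 0 in the MDA-MB-231 libraries. CD14 (14 and 8), ITGAX (8 and 8) and ITGAM (5 and 4) were highest in the LM2 control, and FCER1G (4 and 9) in MDA-MB-231 shTAF7. CD79A, CD79B, PAX5, SPI1 and LYZ had at most 4 reads in a library. The list of 12 myeloid and dendritic markers summed to 24 to 36 counts in LM2 shTAF7, 51 to 60 in the LM2 control, 43 to 46 in MDA-MB-231 shTAF7 and 29 to 45 in the MDA-MB-231 control. The list of 5 B cell markers summed to 89 to 117, 222 to 243, 74 to 135 and 54 to 55 counts in the same order, and nearly all of these were CD22 reads. CD22 had 4.74 and 5.86 CPM in LM2 shTAF7, 11.9 and 13.2 CPM in the LM2 control, 4.14 and 6.39 CPM in MDA-MB-231 shTAF7, and 2.50 and 3.02 CPM in the MDA-MB-231 control. It was thus highest in the LM2 control, as were most of the class II pathway genes below, and its part in those results was not tested. A list of 6 T cell markers summed to 151 to 155, 128 to 160, 49 to 64 and 58 to 71 counts in that order, mostly from CD8A. In bulk RNA a larger share of cells that make class II transcripts and more transcript per cell cannot be told apart.

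**Figure D1:**
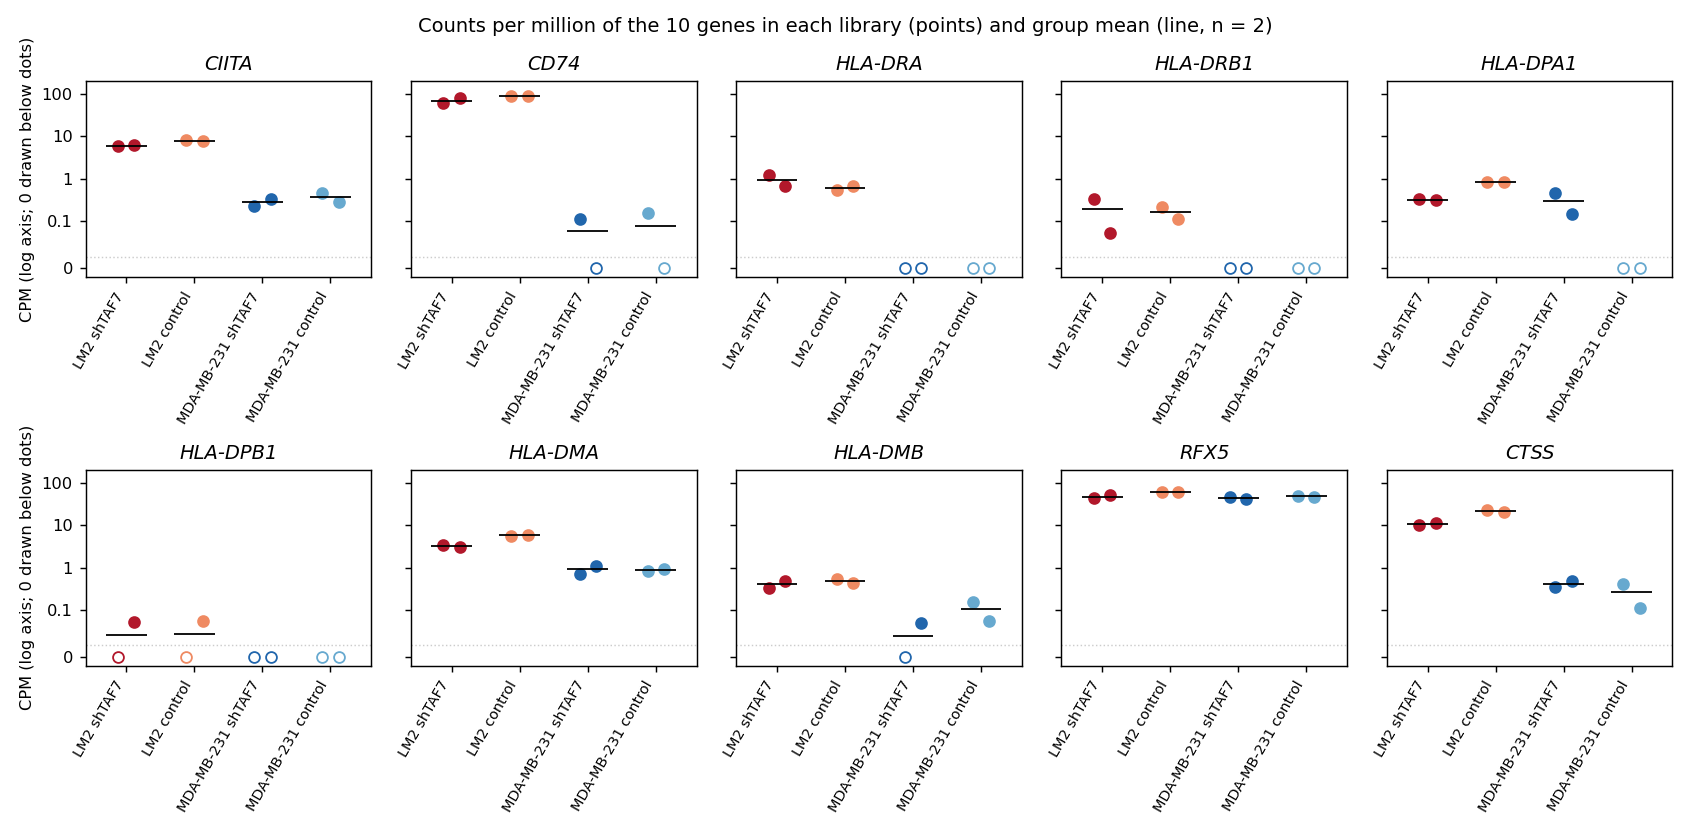
CPM of each of the 10 genes in each library on a log axis, in groups of 2 libraries, with zeros drawn as open circles below the dotted line and the group mean as a black line. CD74, CTSS and CIITA lie at 5.81 to 88.5 CPM in the 4 LM2 libraries and at or below 0.488 CPM in the 4 MDA-MB-231 libraries, while RFX5 lies between 40.1 and 61.1 CPM in all 8.

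CD74 (ENSG00000019582, chromosome 5) was abundant in LM2 and almost absent from MDA-MB-231. It had 1103 and 1473 counts in LM2 shTAF7, 1591 and 1589 in the LM2 control, 2 and 0 in MDA-MB-231 shTAF7, and 3 and 0 in the MDA-MB-231 control. All 4 LM2 libraries were high, both MDA-MB-231 groups were at or under 3 reads per library, and the lines did not overlap. The group means were 69.7 ± 11.5 CPM in LM2 shTAF7 and 88.1 ± 0.684 CPM in the LM2 control (SD, n = 2 each). In the control libraries the ratio of LM2 to MDA-MB-231 was 1089, with a 95% interval of 372 to 5285 that covers counting error only (edgeR adjusted p = 4.2e-36). With shTAF7 in both lines it was 1316, with an interval of 364 to 10871 (edgeR adjusted p = 7.2e-35). By fitted fold change, CD74 ranked 34 from the highest of 15923 tested genes between the controls and 17 between the shTAF7 groups.

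CIITA (ENSG00000179583, chromosome 16), the coactivator that sets class II transcription on or off, followed the same split at a lower level. It had 104 and 116 counts in LM2 shTAF7, 146 and 141 in the LM2 control, 4 and 7 in MDA-MB-231 shTAF7, and 9 and 5 in the MDA-MB-231 control. The LM2 libraries were all above 100 counts and the MDA-MB-231 libraries all below 10. CIITA was 20.7-fold higher in the LM2 control than in the MDA-MB-231 control (log2 fold change 4.37 ± 0.30 SE, edgeR adjusted p = 1.9e-17) and 4.32 ± 0.33 higher on the log2 scale in LM2 shTAF7 than in MDA-MB-231 shTAF7 (edgeR adjusted p = 7.3e-16). The strand setting of the counts is not given in the sources used here, and 11.6% of the exon length of CIITA in GENCODE 29 (2416 bases) overlaps DEXI on the opposite strand. DEXI had 245 counts in LM2 shTAF7, 245 in the LM2 control, 95 in MDA-MB-231 shTAF7 and 151 in the MDA-MB-231 control (both libraries summed), so some reads of either gene could have been counted for the other, which was not tested.

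RFX5 (ENSG00000143390, chromosome 1), the DNA-binding subunit that recognises the X box of class II promoters, was expressed in both lines. It had 768 and 942 counts in LM2 shTAF7, 1106 and 1097 in the LM2 control, 788 and 822 in MDA-MB-231 shTAF7, and 917 and 831 in the MDA-MB-231 control. On the CPM scale the LM2 control libraries, at 60.9 and 61.1, were the highest, and LM2 shTAF7, at 42.9 and 49.7, overlapped both MDA-MB-231 groups. RFX5 was 0.37 ± 0.08 higher on the log2 scale in the LM2 control than in the MDA-MB-231 control (edgeR adjusted p = 9.5e-05), and it did not pass the test between LM2 shTAF7 and MDA-MB-231 shTAF7 (0.11 ± 0.08, edgeR adjusted p = 0.259).

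Transcripts of the class II chains themselves were scarce in LM2 although CIITA and CD74 were present. HLA-DRA (ENSG00000204287), the alpha chain of HLA-DR, had 22 and 13 counts in LM2 shTAF7, 10 and 12 in the LM2 control, and 0 in each of the 4 MDA-MB-231 libraries. The LM2 libraries thus all held HLA-DRA reads and the MDA-MB-231 libraries none. Against a floor of 3 counts per library, HLA-DRA was at least 5.96-fold higher in LM2 shTAF7 than in MDA-MB-231 shTAF7 (edgeR adjusted p = 1.9e-06) and at least 3.76-fold higher in the LM2 control than in the MDA-MB-231 control (edgeR adjusted p = 5.0e-05). Its partner HLA-DRB1 (ENSG00000196126) had 6 and 1 counts in LM2 shTAF7, 4 and 2 in the LM2 control and 0 in all MDA-MB-231 libraries, too few for the test.

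HLA-DPA1, the alpha chain of HLA-DP, did not follow this split. It (ENSG00000231389) had 6 and 6 counts in LM2 shTAF7, 15 and 15 in the LM2 control, 8 and 3 in MDA-MB-231 shTAF7, and 0 and 0 in the MDA-MB-231 control. MDA-MB-231 shTAF7 overlapped LM2 shTAF7, and the LM2 control libraries were the highest. HLA-DPA1 was at least 5.13-fold higher in the LM2 control than in the MDA-MB-231 control (edgeR adjusted p = 5.2e-06), and between LM2 shTAF7 and MDA-MB-231 shTAF7 it did not pass the test (0.14 ± 0.70, edgeR adjusted p = 0.875). HLA-DPB1 (ENSG00000223865) had 0 and 1 counts in each LM2 group and none in MDA-MB-231. Of 7 other class II chains, none had enough reads for the test: HLA-DQA1, HLA-DQA2, HLA-DQB1 and HLA-DQB2 were at 0 in all 8 libraries, HLA-DRB5 and HLA-DOA had 1 read each, and HLA-DOB had 11 and 8, 4 and 6, 4 and 5, and 5 and 4 counts in LM2 shTAF7, LM2 control, MDA-MB-231 shTAF7 and MDA-MB-231 control. Class II paralogs are alike in sequence and differ between alleles, so that some of their reads may have been assigned elsewhere or dropped, which was not tested.

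HLA-DMA and cathepsin S lay between CD74 and the class II chains in level per length. HLA-DMA (ENSG00000204257), the alpha chain of HLA-DM, had 62 and 57 counts in LM2 shTAF7, 102 and 104 in the LM2 control, 12 and 23 in MDA-MB-231 shTAF7, and 16 and 17 in the MDA-MB-231 control. It was 6.37-fold higher in the LM2 control than in the MDA-MB-231 control (log2 fold change 2.67 ± 0.28, edgeR adjusted p = 1.6e-11) and 3.47-fold higher in LM2 shTAF7 than in MDA-MB-231 shTAF7 (1.79 ± 0.30, edgeR adjusted p = 1.4e-06). The lines did not overlap, and reads were counted for HLA-DMA in every MDA-MB-231 library. In GENCODE 29 HLA-DMA shares 55 exon bases with BRD2 on the opposite strand, which had 11120 counts in LM2 shTAF7, 9613 in the LM2 control, 11206 in MDA-MB-231 shTAF7 and 11866 in the MDA-MB-231 control (both libraries summed), and the part of BRD2 reads in the low HLA-DMA counts was not tested. The beta chain gene HLA-DMB (ENSG00000242574) had 6 and 9 counts in LM2 shTAF7, 10 and 8 in the LM2 control, 0 and 1 in MDA-MB-231 shTAF7, and 3 and 1 in the MDA-MB-231 control, and had too few reads for the test. Summed over libraries, LM2 shTAF7 exceeded MDA-MB-231 shTAF7, which held 1 read, by a ratio of 15.3 with a 95% counting interval of 2.36 to 645. The control groups were closer, with 18 reads in LM2 and 4 in MDA-MB-231 (means of 0.498 and 0.106 CPM).

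CTSS (ENSG00000163131, chromosome 1), which cleaves the invariant chain, had 181 and 213 counts in LM2 shTAF7, 403 and 367 in the LM2 control, 6 and 10 in MDA-MB-231 shTAF7, and 8 and 2 in the MDA-MB-231 control. Every LM2 library was far above every MDA-MB-231 library, and within LM2 the shTAF7 libraries were below the controls. CTSS was 77.2-fold higher in the LM2 control than in the MDA-MB-231 control (log2 fold change 6.27 ± 0.26, edgeR adjusted p = 4.4e-26) and 24.8-fold higher in LM2 shTAF7 than in MDA-MB-231 shTAF7 (4.63 ± 0.26, edgeR adjusted p = 1.5e-20).

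Class II promoters share an X box, bound by the RFX complex and CREB1, followed by a Y box, the CCAAT sequence bound by NF-Y. The promoter table (RefSeq, build GRCh38.p14, 250 bases before to 50 after the start) held 10 windows for 7 of the genes, and CIITA, HLA-DRA and CTSS were not among them. The windows below show 3 levels of output in LM2: CD74 (abundant), HLA-DMA (intermediate) and HLA-DRB1 (almost absent). Each is printed 5′ to 3′ on the gene's own strand, the minus strand, with capitals on CCAAT, on its reverse complement ATTGG, and on CTGATG, a stretch of the HLA-DRB1 X box (searched on both strands, and the motifs do not overlap one another here).
CD74 at chr5:150412861-150413160: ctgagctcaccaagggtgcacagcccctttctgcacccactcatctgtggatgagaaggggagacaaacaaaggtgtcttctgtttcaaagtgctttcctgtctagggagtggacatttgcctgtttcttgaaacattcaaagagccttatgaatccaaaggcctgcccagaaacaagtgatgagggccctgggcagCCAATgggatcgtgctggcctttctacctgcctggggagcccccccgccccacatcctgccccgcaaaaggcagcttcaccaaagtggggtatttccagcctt
HLA-DMA at chr6:32953048-32953347: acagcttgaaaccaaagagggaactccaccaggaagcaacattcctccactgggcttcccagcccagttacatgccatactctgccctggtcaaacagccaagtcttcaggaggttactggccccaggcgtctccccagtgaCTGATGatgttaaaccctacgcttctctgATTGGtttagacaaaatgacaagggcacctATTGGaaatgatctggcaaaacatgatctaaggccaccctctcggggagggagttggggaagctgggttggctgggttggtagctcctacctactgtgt
HLA-DRB1 at chr6:32589799-32590098: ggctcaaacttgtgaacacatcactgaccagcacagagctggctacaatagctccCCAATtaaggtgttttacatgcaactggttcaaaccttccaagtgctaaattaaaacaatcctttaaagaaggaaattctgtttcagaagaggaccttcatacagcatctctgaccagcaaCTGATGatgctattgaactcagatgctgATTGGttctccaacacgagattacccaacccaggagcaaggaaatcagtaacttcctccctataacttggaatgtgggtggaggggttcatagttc
In the CD74 window CCAAT began at position -53 from the start and CTGATG was not present. Only these exact letters were searched, so an X box with other letters would have been missed. In HLA-DMA, CTGATG began at -108 and the reverse CCAAT at -79 and -49. In HLA-DRB1, CTGATG began at -74, and CCAAT began at -195 and, reversed, at -46. Over all 10 windows, 6 held CCAAT, 3 held CTGATG and 3 held both, and over the 35116 windows of all genes these shares were 34.6%, 11.9% and 4.17%. The motifs were chosen after the sequences were seen, and a match is a description of letters, not of a bound site. The HLA-DRB1 window held both motifs, and its gene had at most 6 reads in a library.

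Between the control libraries, all 7 of the genes with enough reads for the test were called higher in LM2 and none lower, where 32.2% of all 15923 tested genes were called higher and 32.1% lower. Between the shTAF7 groups 5 of the 7 were called higher and none lower, where the shares were 30.9% and 31.6%. Nothing is read from these counts, since only HLA-DMA and RFX5 had enough reads in MDA-MB-231 alone to be tested, and the other 5 passed the read minimum through the LM2 libraries. HLA-DRB1, HLA-DPB1 and HLA-DMB did not pass it. The 2 line comparisons used different libraries, while each shares its groups with the knockdown comparisons below.

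**Figure D2:**
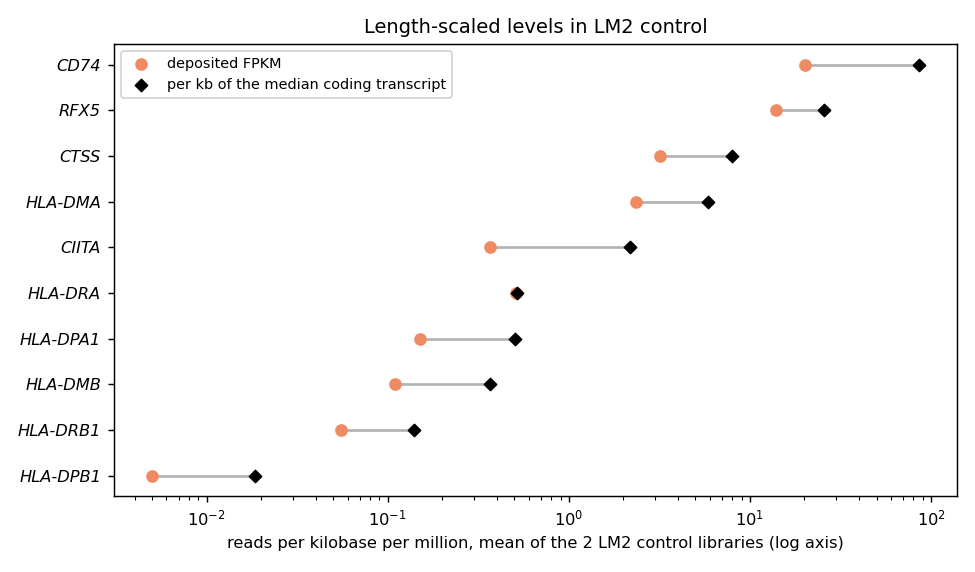
Length-scaled level of each gene in the LM2 control on a log axis, as the mean of 2 libraries, with the deposited FPKM (circles) and CPM per kilobase of the median protein-coding transcript (diamonds). CD74 and RFX5 lead on both scales, and CIITA lies below HLA-DRA in FPKM and above it per coding transcript.

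Levels were compared between genes per length. In the deposited FPKM values (CPM of fragments per kilobase of gene length), CD74 had 13.04 and 16.04 in LM2 shTAF7 and 19.94 and 20.3 in the LM2 control. RFX5 had 9.02 and 10.2 FPKM in LM2 shTAF7 and 13.8 and 13.9 in the LM2 control, CTSS 1.41 and 1.52 against 3.32 and 3.08, HLA-DMA 1.32 and 1.12 against 2.30 and 2.39, HLA-DRA 0.95 and 0.52 against 0.46 and 0.56, and CIITA 0.25 and 0.25 against 0.37 and 0.36. Neighbours in this order did not overlap within either LM2 group, down to CIITA. HLA-DPA1, HLA-DMB, HLA-DRB1 and HLA-DPB1 had group means of at most 0.15 FPKM.

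The invariant chain thus exceeded its class II partner: in FPKM the ratio of CD74 to HLA-DRA was 13.7 and 30.8 in the LM2 shTAF7 libraries and 43.3 and 36.3 in the LM2 control libraries. The ratio of CD74 to RFX5 was nearly constant, at 1.45 and 1.57 in LM2 shTAF7 and 1.45 and 1.46 in the LM2 control. These ratios depend on the gene length behind the deposited values. The count and FPKM columns together implied a length of 22378 bases for CIITA and 4525 for CD74, whereas the median coding transcripts in GENCODE 29 are 3750.5 and 1059.5 bases long. Scaled to those transcripts, LM2 control levels in CPM per kilobase were 85.9 for CD74, 25.7 for RFX5, 7.97 for CTSS, 5.86 for HLA-DMA, 2.19 for CIITA and 0.515 for HLA-DRA. On that scale, chosen after the values were seen, CD74 exceeded HLA-DRA by 83.7-fold in LM2 shTAF7 and 167-fold in the LM2 control, and CIITA stood above HLA-DRA.

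**Figure D3:**
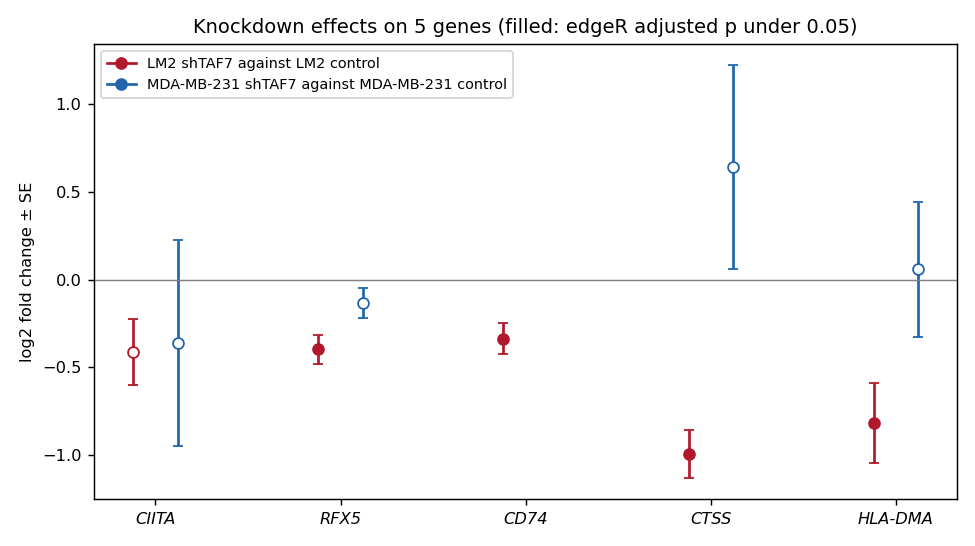
Log2 fold change with its standard error for 5 genes, LM2 shTAF7 against LM2 control (red) and MDA-MB-231 shTAF7 against MDA-MB-231 control (blue), with filled points for an edgeR adjusted p under 0.05. CTSS, HLA-DMA, RFX5 and CD74 were lower with shTAF7 in LM2, no blue point is filled, and CD74 has none because MDA-MB-231 held at most 3 reads per library.

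With the TAF7 hairpin, part of the pathway was lower in LM2. CTSS, HLA-DMA, RFX5 and CD74 fell and none of the 7 tested genes rose, where 19.4% of all tested genes were called lower and 21.8% higher. CTSS fell most among these 4: it averaged 10.7 ± 0.808 CPM in LM2 shTAF7 and 21.3 ± 1.23 CPM in the LM2 control (SD, n = 2 each), or 50.1% of the control level (log2 fold change -0.996 ± 0.14, edgeR adjusted p = 6.6e-08). HLA-DMA had 3.46 and 3.01 CPM in LM2 shTAF7 against 5.61 and 5.80 CPM in the LM2 control, 56.7% of the control level (-0.82 ± 0.23, edgeR adjusted p = 0.00295). RFX5 had 42.9 and 49.7 CPM against 60.9 and 61.1 CPM, 76.0% of the control level (-0.40 ± 0.08, edgeR adjusted p = 0.000105). CD74 had 61.6 and 77.8 CPM in LM2 shTAF7 against 87.6 and 88.5 CPM in the LM2 control, 79.2% of the control level (-0.34 ± 0.09, edgeR adjusted p = 0.00171). The groups overlapped for none of these 4 genes.

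The calls differed in firmness. CTSS and RFX5 kept their call under all 17 alternatives. The CD74 call was lost without LM2 shTAF7 replicate 2 (-0.18, edgeR adjusted p = 0.150), and the HLA-DMA call without LM2 shTAF7 replicate 3 (-0.70, edgeR adjusted p = 0.0561) and with DESeq2 (-0.80, adjusted p = 0.0774). For CD74, limma on log2(FPKM + 0.1) gave -0.47 with an adjusted p of 0.115.

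CIITA itself was at 5.81 and 6.12 CPM in LM2 shTAF7 against 8.04 and 7.86 CPM in the LM2 control. Its groups did not overlap, at 75.1% of the control level, but it missed the threshold (-0.41 ± 0.19, edgeR adjusted p = 0.0714), and passed with upper quartile scaling (-0.45, edgeR adjusted p = 0.0498) and with the LM2 libraries alone (-0.42, edgeR adjusted p = 0.0382). HLA-DPA1 also missed it, with 12 reads in LM2 shTAF7 against 30 in the LM2 control (-1.33 ± 0.59, edgeR adjusted p = 0.0633; -1.34 and 0.0354 with the LM2 libraries alone). HLA-DRA did not pass, at 0.957 ± 0.383 CPM in LM2 shTAF7 and 0.610 ± 0.0836 CPM in the LM2 control (0.64 ± 0.51, edgeR adjusted p = 0.331). The HLA-DRA groups did not overlap either, with LM2 shTAF7 the higher, on few reads. HLA-DMB, HLA-DRB1 and HLA-DPB1 had 15, 7 and 1 reads in LM2 shTAF7 against 18, 6 and 1 in the LM2 control and overlapped between the groups.

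In MDA-MB-231, where these genes were at or near 0 apart from RFX5 and HLA-DMA, the TAF7 hairpin gave a single call. HLA-DPA1 was at least 1.89-fold higher in MDA-MB-231 shTAF7, with 8 and 3 counts, than in the MDA-MB-231 control, with 0 and 0 (edgeR adjusted p = 0.00824), where 12.6% of all tested genes were called higher and 12.9% lower. That call was lost without MDA-MB-231 shTAF7 replicate 2, without MDA-MB-231 control replicate 2 and without control replicate 3. It was also lost with limma on log2(FPKM + 1) without an FPKM filter (0.0768, adjusted p = 0.238). RFX5 was at 46.0 and 40.1 CPM in MDA-MB-231 shTAF7 and 47.7 and 46.5 CPM in the control and was not called (-0.13 ± 0.08, edgeR adjusted p = 0.266). HLA-DMA (0.06 ± 0.39, edgeR adjusted p = 0.942), CTSS (0.64 ± 0.58, edgeR adjusted p = 0.468) and CIITA (-0.36 ± 0.59, edgeR adjusted p = 0.717) were not called either, each on few reads. No fold is given for CD74 and HLA-DRA, which were at or under the floor in both MDA-MB-231 groups.

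The difference between the knockdown effects, LM2 minus MDA-MB-231, was tested for each gene as an interaction. CTSS and HLA-DPA1 were called lower and none higher, where 11.9% of all tested genes were called lower and 13.9% higher. Nothing is read from this number, since both genes passed the read minimum through the LM2 libraries alone. For CTSS the difference was -1.64 ± 0.60 (edgeR adjusted p = 0.0375), and it lost its call in 4 of the 8 fits that each left out a library, down to -1.01 without MDA-MB-231 control replicate 3. The CTSS call was also lost without the read filter (edgeR adjusted p = 0.0646), with DESeq2 (adjusted p = 0.0582) and with limma on log2(FPKM + 0.1) (adjusted p = 0.0507). The HLA-DPA1 difference (edgeR adjusted p = 0.00157) has no interpretable size because the MDA-MB-231 control had no reads. Its call was lost with limma on log2(FPKM + 1) without an FPKM filter (adjusted p = 0.0518). The difference was not called for HLA-DMA (-0.88 ± 0.45, edgeR adjusted p = 0.153), RFX5 (-0.26 ± 0.12, edgeR adjusted p = 0.0941) or CIITA (-0.05 ± 0.73, edgeR adjusted p = 0.980). RFX5 passed with upper quartile scaling (-0.33, edgeR adjusted p = 0.0307), without LM2 shTAF7 replicate 3 (-0.34, 0.0391) and without MDA-MB-231 shTAF7 replicate 3 (-0.36, 0.0375). For CD74 it was not called by edgeR (adjusted p = 0.924). On the log2(FPKM + 1) scale limma called HLA-DMA (-0.60, adjusted p = 0.0258), RFX5 (-0.35, adjusted p = 0.0482) and CD74 (-0.44, adjusted p = 0.0484), and for CD74 the MDA-MB-231 libraries are all near 0 on that scale.

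The factors with which CIITA works at class II promoters were expressed in both lines and moved in both directions. Of 11 subunits and coactivators, all with enough reads, 4 were lower and 2 higher in LM2 shTAF7 than in the LM2 control, beside 19.4% and 21.8% of all tested genes, with a median log2 fold change of -0.11 beside -0.02 over all tested genes. EP300, a histone acetyltransferase, fell by 0.56 ± 0.09 (edgeR adjusted p = 6.6e-07), and CREB1, which binds the X2 part of the X box, fell by 0.37 ± 0.07 (edgeR adjusted p = 4.5e-05). SMARCA4, the ATPase of the SWI/SNF remodeller, rose by 0.39 ± 0.07 (edgeR adjusted p = 1.1e-05). RFXANK, a partner of RFX5, had a value of 0.32 ± 0.08 (edgeR adjusted p = 0.00179). Its call was lost in 4 of 17 alternatives, namely without LM2 shTAF7 replicate 3 (0.23) and in the 3 forms of limma. In MDA-MB-231 shTAF7 against its control 1 of the 11 rose and 3 fell (12.6% and 12.9% of all tested genes), EP300 by 0.74 ± 0.08 (edgeR adjusted p = 6.5e-10). Between the controls 6 were higher and 3 lower in LM2 (32.2% and 32.1% of all tested genes), among them RFXAP (0.91 ± 0.17) and RFXANK (0.66 ± 0.09) higher and EP300 lower (-1.11 ± 0.08; edgeR adjusted p = 7.6e-06, 9.7e-09 and 6.0e-17).

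**Figure D4:**
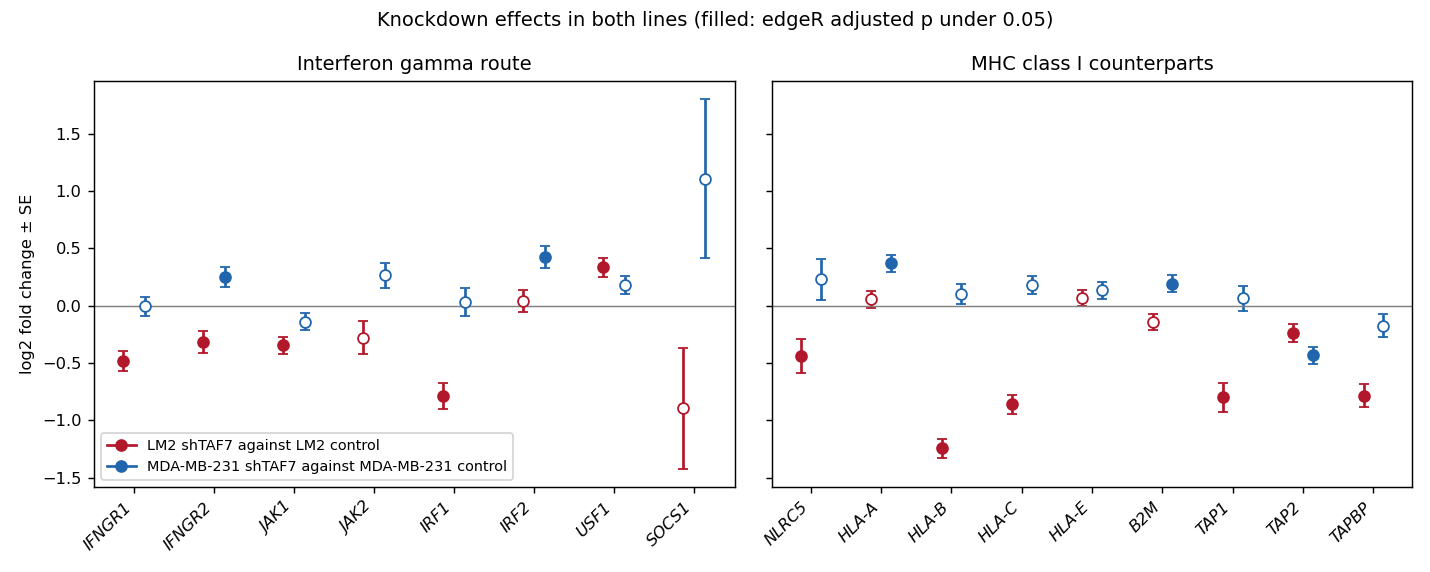
Log2 fold change with its standard error for genes of the interferon gamma route (left) and for MHC class I counterparts (right), LM2 shTAF7 against LM2 control (red) and MDA-MB-231 shTAF7 against MDA-MB-231 control (blue), with filled points for an edgeR adjusted p under 0.05. IRF1 and HLA-B have the lowest filled red points of their panels, at -0.79 and -1.25, and their blue points are open.

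Interferon gamma induces CIITA through its receptor, the kinases JAK1 and JAK2, and IRF1. Of 8 genes of this route, 1 was higher and 4 were lower in LM2 shTAF7 than in the LM2 control, beside 21.8% and 19.4% of all tested genes (median -0.33, beside -0.02). In MDA-MB-231 shTAF7 against its control 2 were called higher and none lower, beside 12.6% and 12.9% (median 0.22, beside 0.01), and of these IFNGR2 (0.25 ± 0.09, edgeR adjusted p = 0.0284) lost its call in 8 of 17 alternatives. IRF1, which binds the interferon-responsive promoter of CIITA, had 241 and 314 counts in LM2 shTAF7, 514 and 424 in the LM2 control, 254 and 300 in MDA-MB-231 shTAF7, and 261 and 272 in the MDA-MB-231 control. The LM2 control libraries were the high ones, and the other 3 groups overlapped at 13.5 to 16.6 CPM. IRF1 fell by 0.79 ± 0.12 with shTAF7 in LM2 (edgeR adjusted p = 2.8e-07) and was 0.85 ± 0.12 higher in the LM2 control than in the MDA-MB-231 control (edgeR adjusted p = 1.2e-08). With it in LM2 fell the receptor chain IFNGR1 (by 0.48 ± 0.09, edgeR adjusted p = 1.6e-05) and JAK1 (by 0.35 ± 0.08, edgeR adjusted p = 0.000263), while USF1, which also binds a CIITA promoter, rose by 0.33 ± 0.08 (edgeR adjusted p = 0.000721). Between the controls 3 of the 8 were higher in LM2, among them IRF1 and SOCS1, an inhibitor of the JAK kinases (2.05 ± 0.62, edgeR adjusted p = 0.00343), beside 32.2% of all tested genes. SOCS1 rested on few reads, with 15 and 18 counts in the LM2 control and 3 and 5 in the MDA-MB-231 control. The 3 that were lower, beside 32.1%, were JAK2 (-1.07 ± 0.13), IFNGR2 (-0.50 ± 0.09) and IFNGR1 (-0.40 ± 0.08; edgeR adjusted p = 3.4e-10, 6.9e-06 and 4.3e-05).

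Of 7 genes known to repress CIITA, namely PRDM1, the Polycomb genes EZH2, SUZ12 and EED, and HDAC1, HDAC2 and SIN3A, 3 were called higher and none lower in LM2 shTAF7 than in the LM2 control, beside 21.8% and 19.4% of all tested genes. In the LM2 control 2 were higher and 4 lower than in the MDA-MB-231 control, beside 32.2% and 32.1%. EZH2 (0.32 ± 0.07, edgeR adjusted p = 0.000122) and EED (0.32 ± 0.07, edgeR adjusted p = 0.000277) rose in LM2 shTAF7, and the call of HDAC2 (0.19 ± 0.07, edgeR adjusted p = 0.0171) was lost in 4 of 17 alternatives. SIN3A was the lowest between the lines (-1.07 ± 0.07, edgeR adjusted p = 7.7e-18).

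Of 12 genes of endolysosomal antigen processing other than CTSS, 11 had enough reads. In LM2 shTAF7 against the LM2 control 3 were higher and 3 lower, beside 21.8% and 19.4% of all tested genes. In the LM2 control against the MDA-MB-231 control 6 were higher and 2 lower, beside 32.2% and 32.1%, and CTSF, one of the 6, passed the read minimum through the LM2 libraries alone. CTSB (1.23 ± 0.07), CTSD (1.06 ± 0.07), CTSV (1.06 ± 0.13) and CTSH (1.003 ± 0.11), proteases of the endolysosome, were higher in the LM2 control than in the MDA-MB-231 control (edgeR adjusted p = 3.7e-21, 2.7e-17, 3.7e-10 and 5.6e-11). With shTAF7 in LM2, CSTB, an inhibitor of cathepsins, was higher by 0.43 ± 0.07 (edgeR adjusted p = 3.1e-06; lost in 1 of 17 alternatives) and SPPL2A, which cleaves the last membrane-bound piece of CD74, by 0.30 ± 0.08 (edgeR adjusted p = 0.00139; lost in 4 of 17). CTSD fell by 0.35 ± 0.07 and CTSB by 0.25 ± 0.07 (edgeR adjusted p = 9.1e-05 and 0.00191), beside 0.996 for CTSS. CTSF, which can also degrade the invariant chain, had 15 and 8 counts in LM2 shTAF7, 29 and 25 in the LM2 control and 0 in all MDA-MB-231 libraries, and was at least 9.23-fold higher in the LM2 control than in the MDA-MB-231 control (edgeR adjusted p = 3.5e-08).

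CD74 at the cell surface is also the receptor for the cytokine MIF and signals with CD44 and chemokine receptors. Of 6 genes of this group CXCR4 and CD44 had enough reads, CXCR4 through the LM2 libraries alone, so nothing is read from their number. CXCR4 had 25 and 22 counts in LM2 shTAF7, 27 and 21 in the LM2 control and 0 in the MDA-MB-231 libraries, at least 8.20-fold higher in the LM2 control than in the MDA-MB-231 control (edgeR adjusted p = 6.3e-08). CD44 was 0.59 ± 0.07 higher on the log2 scale in the LM2 control than in the MDA-MB-231 control (edgeR adjusted p = 1.4e-10). MIF and its paralog DDT were listed at 0 in all 8 libraries. Whether their reads were absent or were lost in mapping or counting was not tested. Of 3 genes that set class II turnover at the surface, CD83, which keeps class II molecules at the surface, fell in LM2 (-0.38 ± 0.10, edgeR adjusted p = 0.00161). MARCHF8, a ubiquitin ligase that removes them, fell in MDA-MB-231 shTAF7 (-0.55 ± 0.11, edgeR adjusted p = 9.0e-05), and in LM2 its call (-0.29 ± 0.10) was lost in 5 of 17 alternatives.

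MHC class I genes, whose transactivator NLRC5 is a relative of CIITA, were set beside the class II genes. Of 9 class I genes, 6 fell and none rose in LM2 shTAF7 against the LM2 control, beside 19.4% and 21.8% of all tested genes (median -0.44, beside -0.02). In MDA-MB-231 shTAF7 against its control 1 was called lower and 2 higher, beside 12.9% and 12.6%, and of these B2M, the light chain of class I (0.19 ± 0.07, edgeR adjusted p = 0.0389), lost its call in 7 of 17 alternatives. HLA-B had 632 and 798 counts in LM2 shTAF7, 1669 and 1648 in the LM2 control, 731 and 917 in MDA-MB-231 shTAF7, and 775 and 736 in the MDA-MB-231 control. As with IRF1, the LM2 control libraries alone were high. HLA-B fell by 1.25 ± 0.08 with shTAF7 in LM2 (edgeR adjusted p = 1.3e-17), HLA-C by 0.86 ± 0.08 and TAPBP by 0.79 ± 0.10 (edgeR adjusted p = 2.8e-12 and 9.2e-09). NLRC5, named as the counterpart of CIITA and not by the rule for named genes, had 172 and 152 counts in LM2 shTAF7, 198 and 233 in the LM2 control, 100 and 114 in MDA-MB-231 shTAF7, and 91 and 89 in the MDA-MB-231 control. It was present in both lines, 1.30 ± 0.16 higher on the log2 scale in the LM2 control than in the MDA-MB-231 control (edgeR adjusted p = 1.2e-09), beside 4.37 ± 0.30 for CIITA. Its value with shTAF7 in LM2 was -0.44 ± 0.15 (edgeR adjusted p = 0.0141), and the call was lost in 6 of 17 alternatives: without LM2 shTAF7 replicate 3 (edgeR adjusted p = 0.212), without LM2 control replicate 3 (edgeR adjusted p = 0.218), with DESeq2 and in the 3 forms of limma.

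The genes whose levels ran most like those of CD74 over the 8 libraries shared its on-off split between the lines. Likeness was measured as the root mean square distance of centred log2 CPM over 10751 genes with a mean of at least 5 CPM. SERPINB9, an inhibitor of granzyme B, was nearest (0.47), followed by APBB1IP, an adaptor of integrin activation (0.49), and CPPED1, a phosphatase (0.55). SERPINB9 averaged 33.5 CPM in LM2 shTAF7, 52.5 CPM in the LM2 control and 0 in both MDA-MB-231 groups, and APBB1IP 87.2, 74.4, 0.0292 and 0 CPM in LM2 shTAF7, the LM2 control, MDA-MB-231 shTAF7 and the MDA-MB-231 control. With CD74 these 2 were the only genes of the series at 50 CPM or more in the LM2 control and 0.1 CPM or less in the MDA-MB-231 control, while 4 genes (COX7B2, MAGEA3, MAGEA6 and MAGEC1) had the opposite pattern. CTSS was nearest to EPB41L3 (0.33), NNMT (0.34) and ZNF90 (0.35). RFX5, with its smaller range, was nearest to PRR5L (0.03), WDR73 (0.04) and PIGP (0.06).

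Of the 3 genes on either side of CD74 on chromosome 5, SYNPO (-0.99), TCOF1 (-0.84) and NDST1 (-0.26) were lower in the LM2 control than in the MDA-MB-231 control on the log2 scale (edgeR adjusted p = 4.3e-12, 1.0e-14 and 0.00157), RPS14 was higher (0.17, edgeR adjusted p = 0.0393), and CAMK2A and ARSI had too few reads for the test. Around CTSS on chromosome 1, ENSA (0.77), GOLPH3L (0.41) and ARNT (0.21) were higher in the LM2 control than in the MDA-MB-231 control (edgeR adjusted p = 2.0e-13, 6.1e-05 and 0.0425), and the adjacent paralog CTSK was not called (0.28, edgeR adjusted p = 0.252). Beside CIITA on chromosome 16, DEXI (0.74, edgeR adjusted p = 0.00182) and SOCS1 (2.05, on few reads) were higher in the LM2 control than in the MDA-MB-231 control, CLEC16A was lower (-0.30, edgeR adjusted p = 0.00312), and NUBP1 was not called (-0.13, edgeR adjusted p = 0.589). These neighbours were chosen after values had been seen.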

How the data were processed

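RNA-seq of 8 libraries (4 groups of 2) was deposited as a table of read counts and a table of FPKM values, per gene and library. Per the submitters' processing notes, STAR 2.7.10a and build hg19 were used. For the read counter, strand setting, annotation and gene lengths of the FPKM values, the tool or choice is not given in the sources used here. Counts are whole numbers as deposited by the authors, and the FPKM values were length-scaled and depth-scaled by the authors before deposit.

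From the counts, edgeR 4.0.16 (R 4.3.3) fitted a quasi-likelihood model with 4 group means to all libraries, with TMM scaling and its default read filter, which kept 15923 of 61552 genes. Benjamini-Hochberg adjusted p-values are over these genes, with 0.05 as the threshold. Errors beside log2 fold changes are standard errors. Where a group had no reads, folds are bounds against 3 counts per library. Where it had 1 to 3, the ratio is given with an exact interval, and intervals and bounds cover counting error only. The step was tested on simulated counts with 50 genes changed at each fold, none of them with a low mean count. At 1.3-fold, 46% to 62% were recovered in the comparisons of 2 groups and 22% for the interaction. At 2-fold these shares were 88% to 94% and 86%. Groups come from the labels. Comparisons of the knockdown and of the lines share libraries, so they are not independent of each other. Same-numbered libraries did not deviate together (correlations of -0.0618 to 0.0214 over genes), so the numbers were not used as pairs.

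Alternatives were RLE and upper quartile scaling, no read filter, a replicate block, only the libraries compared, each library left out, DESeq2 1.42.0, and limma 3.58.1 on log2(FPKM + 1), on log2(FPKM + 0.1) and without an FPKM filter; these log2 values were computed from the deposited FPKM. The genes and lists were chosen with earlier results of these data known. From each list, the text names at most 4 called genes with the smallest adjusted p, or genes named as counterparts; nearest genes by pattern are the first 3 for CD74, RFX5 and CTSS. From the lists of the interferon gamma route and of B cell markers, 1 gene each was left out and is not reported here.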

Additional observations from a re-analysis of the deposited data

Results flagged for a closer look

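The effect of the TAF7 hairpin differed between the lines, by the edgeR interaction term (LM2 minus MDA-MB-231, log2 scale, adjusted p under 0.05), for 2 of the 7 tested genes, beside 11.9% of all tested genes called lower and 13.9% called higher. Both, CTSS and HLA-DPA1, passed the read minimum through the LM2 libraries alone, so nothing is read from their number. Of the lists, the difference was called for 5 of 8 genes of the interferon gamma route, 7 of 9 class I genes, 2 of 11 partners of CIITA, 3 of 7 repressors, 2 of 11 endolysosomal genes and 1 of 3 turnover genes, and those named are given here. For CTSS the difference was -1.6405 and for HLA-DPA1 the fitted value was -6.8086, whose size depends on the prior count because the MDA-MB-231 control held no HLA-DPA1 reads. In the interferon gamma route it was -0.8215 for IRF1, -0.5698 for IFNGR2, -0.4773 for IFNGR1 and -0.5455 for JAK2. Among class I genes it was -1.3472 for HLA-B, -1.0424 for HLA-C, -0.861 for TAP1, -0.6107 for TAPBP and -0.6686 for NLRC5. Of the partners of CIITA, SMARCA4 had 0.3687 and CREB1 -0.2893, and of the CIITA repressors SUZ12 had 0.3951, EZH2 0.3368 and SIN3A 0.2745. The lysosomal proteases CTSB and CTSD had -0.4944 and -0.3024, and CD83 had -0.7024. HLA-B, HLA-C, TAP1, IFNGR1, CTSB and CD83 kept the call under all 16 alternatives, IRF1, IFNGR2, TAPBP and SUZ12 lost it in 1, SMARCA4 and EZH2 in 3, JAK2 in 6, CREB1 in 8, CTSD in 9, and NLRC5 and SIN3A in 10. The differences share the same 8 libraries, so the genes are not independent of each other.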

How the results depend on the processing

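In the LM2 knockdown the count of the 10 genes called (0 higher, 4 lower) stayed within 1.5 times its value under all 17 alternatives, although single calls were lost as given above. In the MDA-MB-231 knockdown the count called higher was 1, and 0 with only the libraries of the comparison, with DESeq2 and with limma in each of its 3 forms. It ran from 0 to 1 over fits that left out a library. The gene called, HLA-DPA1, did not pass the read filter in the MDA-MB-231 libraries alone or the FPKM filter of limma. In the fit with only the libraries of the comparison and in the limma fits with an FPKM filter it could not be called. Nothing is read from the 0 of those fits. Without an FPKM filter limma fitted HLA-DPA1 and did not call it (0.0768, adjusted p = 0.238). Between the controls 7 genes were called higher and between the shTAF7 groups 5, against 4 and 3 with limma on log2(FPKM + 1) and on log2(FPKM + 0.1), whose FPKM filter left only 4 of the genes. For the difference between knockdown effects 2 were called lower, against 1 without the read filter and 0 with DESeq2. With limma the count was 4 on log2(FPKM + 1), 0 on log2(FPKM + 0.1) and 1 on log2(FPKM + 1) without a filter. The count also varied over fits that left out a library. HLA-DPA1 did not pass the FPKM filter, so the filtered limma fits could not call it. Without that filter limma did not call it either (-0.20, adjusted p = 0.0518). The cause of the other changes was not tested. Directions turned for 5 values that edgeR did not call: CIITA in the MDA-MB-231 knockdown (0 with limma without a filter, -0.6763 to 0.0566 without a library), HLA-DMA there (-0.0076 with limma on log2(FPKM + 0.1), -0.3419 to 0.3229 without a library), HLA-DPA1 between the shTAF7 groups (-0.5163 to 1.1128) and, in the difference between effects, CIITA (-0.4631 to 0.2706) and CD74. For CD74, with at most 3 reads in an MDA-MB-231 library, the fitted difference was 0.2116, against -0.4424 with limma on log2(FPKM + 1), where it was called, -0.42 on log2(FPKM + 0.1), -0.4424 without an FPKM filter, and -3.4746 to 3.3878 without a library. With the replicate block the counts stayed at 4 lower, 1 higher, 7 higher, 5 higher and 2 lower in the same order of comparisons. Upper quartile scaling moved the median log2 fold change of all genes between the controls to 0.1241, against 0.0241. Single reads (0.0488 to 0.0583 CPM) limit HLA-DRB1, HLA-DPB1, HLA-DMB and, in MDA-MB-231, every gene but RFX5 and HLA-DMA.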
